A study of Homo sapiens with 6 samples.

Results

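The matrix metalloproteinases (MMPs), the membrane proteases of the ADAM family, the secreted ADAMTS proteases and the tissue inhibitors of metalloproteinases (TIMPs) were examined in H661, an established human cell line from a large cell carcinoma of the lung. Members were all genes whose platform symbol is MMP, ADAM, ADAMTS or TIMP followed directly by a digit, on probe sets that carry exactly 1 symbol. This rule gave 66 of the 18404 genes of the array, namely 22 MMP, 4 TIMP, 23 ADAM and 17 ADAMTS genes, on 68 probe sets. Another 2 probe sets that name family genes carry several symbols and were not used. Of the 66 genes, 4 (ADAM3A, ADAM5, ADAM6 and ADAM20P1) are transcribed pseudogenes in RefSeq.

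The study asked what depletion of SALL4, an oncofetal zinc finger transcription factor, does to lung cancer cells. It compared 3 arrays of H661 cells transduced with lentivirus for a SALL4 shRNA (SALL4-sh) with 3 arrays of cells given a scrambled shRNA (Scr-sh). All samples are of the same line, and knockdown came from 1 hairpin, so an effect of SALL4 loss and any other effect of that hairpin cannot be told apart. SALL4 itself had an intensity of 33.6, 31.9 and 26.5 in SALL4-sh, against 126, 104 and 130 in Scr-sh. Values are normalized intensities on a linear scale in which everything under 8 stands at 8. At this floor stood 38.8% to 40.4% of the probe sets, depending on the array, and dim genes cannot be compared below it. The epithelial marker EPCAM lay far above the floor on all arrays (843 to 1113 in SALL4-sh, against 590 to 898 in Scr-sh). KRT18 had 28.8 to 57 in SALL4-sh, against 41.5 to 76.7 in Scr-sh. KRT7 and KRT19 lay between 10.2 and 15.3, and KRT8 between 8 and 11.1. CDH1 had 17.2, 16.1 and 17.3 in SALL4-sh, against 10.5, 8 and 8.68 in Scr-sh (limma adjusted p = 0.0456). At the floor throughout were 5 of 5 endothelial markers and 4 of 7 leukocyte markers, PTPRC among them. The leukocyte marker CD68 was above it on all arrays (30.5 to 35.4 in SALL4-sh, against 34 to 71.6 in Scr-sh). CD14 and ITGAM did not exceed 9.99.

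MMPs are zinc proteases that are made as inactive precursors and cut collagens and other proteins of the extracellular matrix. ADAMs sit in the cell membrane and release the outer parts of growth factor precursors, receptors and adhesion molecules, and some have lost protease activity. ADAMTS enzymes are secreted and trim proteoglycans, procollagens and von Willebrand factor, while TIMPs bind and block the active site of MMPs and of some ADAMs. In carcinoma these genes are known for their part in invasion and in the shedding of EGFR ligands.

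Many members gave no signal above the floor in H661 cells. On all 6 arrays 23 of the 66 genes (34.8%) stood at the floor, against 21.2% of all genes, while 30 members (45.5%) exceeded it on every array, against 65.5% of all genes. The remaining 13 members were at the floor on some arrays. Among MMPs the genes at the floor throughout were the collagenases MMP8 and MMP13, the stromelysin MMP3, both matrilysins (MMP7 and MMP26), the macrophage elastase MMP12, the enamel protease MMP20, and MMP27. Among ADAMs they were ADAM2, which is a sperm surface protein, ADAM12, ADAM21, ADAM28, ADAM29, ADAM30 and the pseudogenes ADAM3A, ADAM5 and ADAM6. Among ADAMTS genes they were ADAMTS3, ADAMTS5, a main aggrecan-cleaving enzyme of cartilage, ADAMTS6, ADAMTS9, ADAMTS19 and ADAMTS20. All 4 TIMP genes exceeded the floor on all arrays. For a gene at the floor the arrays give only an upper limit of 8, and no difference between the groups could be detected.

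**Figure D1:**
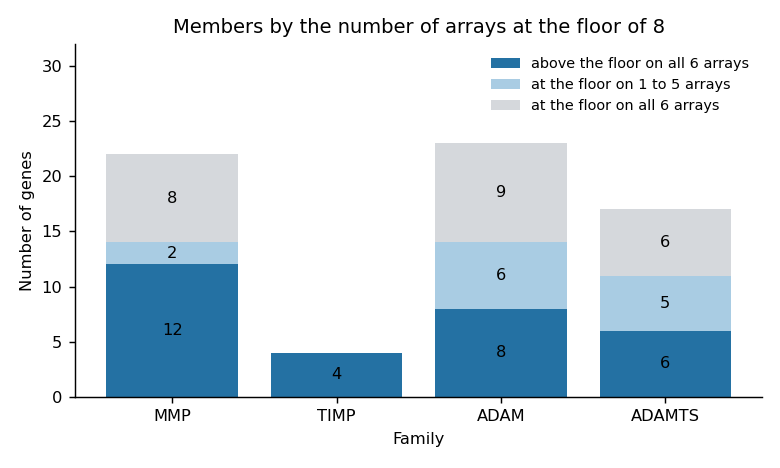
Number of genes of each family (vertical axis) that were above the floor of 8 on all 6 arrays, at it on 1 to 5 arrays, or at it on all 6. The bars hold 22 MMP, 4 TIMP, 23 ADAM and 17 ADAMTS genes, and 8, 0, 9 and 6 of them were at the floor throughout.

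A cluster of MMP genes on chromosome 11 shows this pattern at close range. In the RefSeq annotation of GRCh38.p14 the order is MMP7, MMP20, MMP27, MMP8, MMP10, MMP1, MMP3, MMP12 and MMP13, with 0 other protein-coding genes starting between neighbours. Only MMP10 and MMP1, which lie side by side, exceeded the floor in H661 cells, and both did so on all 6 arrays. The other 7 genes were at the floor on every array. The deposited files name no genome build, so the order is taken from RefSeq alone.

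Bases before the RefSeq start site were compared for genes of this cluster because its members differ in signal although they are neighbours, with ADAM17 as a widely expressed member from another chromosome. They were searched on both strands for TGANTCA, in which N is any base, and for the TATA box letters TATAAA, which do not overlap each other here. TGANTCA is looser than the usual site of AP-1 transcription factors, which has C or G at N. Capitals mark the matches to both patterns. Shown are the 250 bases before the start of MMP10 (GRCh38.p14, chr11:102780629-102780878, minus strand) and the 120 bases before the starts of MMP7 (chr11:102530748-102530867, minus strand), MMP8 (chr11:102724955-102725074, minus strand) and ADAM17 (chr2:9555831-9555950, minus strand), each 5′ to 3′ on the gene's own strand.
MMP10: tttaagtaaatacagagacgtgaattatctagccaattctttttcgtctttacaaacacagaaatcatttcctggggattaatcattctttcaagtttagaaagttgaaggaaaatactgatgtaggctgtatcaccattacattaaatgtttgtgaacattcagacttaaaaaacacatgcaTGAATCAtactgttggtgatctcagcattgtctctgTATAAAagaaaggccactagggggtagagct
MMP7: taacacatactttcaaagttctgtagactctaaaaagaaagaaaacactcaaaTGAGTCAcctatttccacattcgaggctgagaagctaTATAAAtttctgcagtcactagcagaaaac
MMP8: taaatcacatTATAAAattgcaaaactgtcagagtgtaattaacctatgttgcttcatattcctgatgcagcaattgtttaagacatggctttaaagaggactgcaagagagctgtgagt
ADAM17: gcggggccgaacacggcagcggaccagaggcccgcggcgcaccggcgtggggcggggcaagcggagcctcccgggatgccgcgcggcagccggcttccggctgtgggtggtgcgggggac

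In MMP10 the TGANTCA match, TGAATCA, began 67 bases before the start and the TATAAA match 31 bases before it. MMP7, which was at the floor on all arrays, had matches at nearly the same places, 67 and 30 bases before its start. Its TGANTCA match was TGAGTCA. MMP8 had TATAAA 110 bases before its start and no TGANTCA in the 250 bases searched. ADAM17 had neither, and 75.6% of its 250 bases were G or C, compared with 34.4% in MMP10, 33.6% in MMP7 and 36.4% in MMP8. The RefSeq promoter table held 37 of the 66 members, and MMP1, MMP2, MMP3, MMP12 and MMP13 were not searched. Of the 37 searched, 4 (10.8%) had TGANTCA, with any base at N, in the 250 bases, against 6.60% of the 27305 promoters of the table. They were MMP7, MMP10, MMP20 and ADAMTS12. TATAAA was found in 7 of the 37 (18.9%), against 11.1% of all. The median share of G and C was 41.6% in the 13 members that were at the floor on all arrays and 70.4% in the 18 that exceeded it on all. In the 6 members at the floor on some arrays it was 75.4%, the highest of these medians. All ranges were wide (32.8% to 75.2%, 34.4% to 80.0% and 36.4% to 80.4%) and overlapped. These matches describe letters and not binding.

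After SALL4 knockdown 1 member was called. MMP2, which encodes the gelatinase that cuts type IV collagen of basement membranes and is activated at the cell surface by MMP14 with the help of TIMP2, fell. The other 65 members did not pass an adjusted p of 0.05 from limma, including MMP10 and MMP1, whose groups were apart in opposite directions. Of the 66 members 0 were called higher and 1 lower (1.52%), where 1.18% of all genes were called higher and 1.33% lower, so the share of members called lower was near that of the whole array. Without adjustment, limma gave p under 0.05 for 5 members higher and 2 lower (10.6% of the members, against 17.4% of all genes). The median log2 fold change was 0.00 over the 66 members and 0.00 over all genes, both held near 0 by genes at the floor throughout. Among genes above the floor on at least 1 array it was -0.01 over 43 members and 0.01 over 14511 genes.

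MMP2 had intensities of 16.2, 11 and 14.8 in SALL4-sh, against 41.7, 40.2 and 31.9 in Scr-sh. All 3 SALL4-sh arrays lay below all 3 Scr-sh arrays, and none was at the floor. The means were 14 ± 2.67 in SALL4-sh and 37.9 ± 5.31 in Scr-sh (SD, n = 3 each). The log2 fold change was -1.45 (standard error 0.20, 95% confidence interval -1.98 to -0.92), which leaves 0.367 of the Scr-sh level. The adjusted p was 0.0492 from limma, just under the threshold. It was 0.0114 when genes that stood at the floor throughout were left out before the fit, a setting in which 4.36% of 14511 genes were called higher and 4.20% lower, and MMP2 was again the only member called. With any 1 of the 6 arrays left out, MMP2 lost the call in limma (adjusted p of 0.1 to 0.153), although its log2 fold change stayed between -1.57 and -1.28. The call was also lost with eBayes trend and robust settings (adjusted p = 0.0716 from limma) and with each probe set tested by itself (adjusted p = 0.0502 from limma), and over all alternatives the adjusted p of MMP2 ran from 0.00236 to 0.17, past the threshold in 9 of 19. For single genes, 3 against 3 arrays give a two-sided exact permutation p of 0.1 at best, which is that of groups that do not overlap.

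Of 9 fibroblast markers set beside MMP2, 1 was called lower and 0 higher, namely COL1A1 (log2 fold change -0.48, limma adjusted p = 0.0387). Of all genes 1.33% were called lower and 1.18% higher. SALL4-sh values lay below all Scr-sh values in COL1A1, COL1A2 and THY1, as in 12.5% of the 14511 genes above the floor on at least 1 array. COL3A1 had the opposite sign (log2 fold change 0.24, limma adjusted p = 0.464), and the median log2 fold change of the 9 markers was -0.07. The summed intensity of the 9 markers was 351 to 427 in SALL4-sh and 495 to 558 in Scr-sh. This sum leans on the brightest marker, COL1A2 (122 to 175 in SALL4-sh, against 212 to 282 in Scr-sh). LUM, PDGFRA and PDGFRB, at the floor on some arrays, had log2 fold changes of -0.03, -0.31 and -0.07, and their groups were not apart. DCN and FAP, which mark fibroblasts in tissue, were at the floor on all 6 arrays. All samples are of the H661 line, and no source describes fibroblasts in them. In such bulk RNA, fewer H661 cells with these transcripts and less RNA per cell cannot be told apart. The part of these genes in the MMP2 difference was not tested.

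The other gelatinase, MMP9, lay near the floor in both groups, at 10.4, 9.81 and 10.5 in SALL4-sh, against 10.6, 12.2 and 8.17 in Scr-sh. These groups overlapped, and the log2 fold change was 0.01 (95% confidence interval -0.42 to 0.45), with a sign that turned under median centring and quantile normalization. MMP14, the membrane-type MMP that activates the MMP2 precursor, had 16.2, 18.7 and 17.5 in SALL4-sh, against 13.3, 13 and 19.1 in Scr-sh. The highest of its 6 values was a Scr-sh array, and its log2 fold change was 0.23 (95% confidence interval -0.26 to 0.71, adjusted p = 0.705 from limma).

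MMP10, or stromelysin 2, which cuts proteoglycans, laminin and fibronectin and activates other MMPs, had 91.5, 62.4 and 89.9 in SALL4-sh, against 135, 286 and 142 in Scr-sh. The groups did not overlap, and Scr-sh replicate 2 was well above the other Scr-sh arrays. The means were 81.3 ± 16.4 in SALL4-sh and 188 ± 84.7 in Scr-sh (SD, n = 3 each). The log2 fold change was -1.14 (standard error 0.37, 95% confidence interval -2.14 to -0.14, adjusted p = 0.232 from limma), and it was -0.79 without Scr-sh replicate 2. MMP1, the interstitial collagenase that cuts fibrillar collagens, had 153, 165 and 87.3 in SALL4-sh, against 52.3, 82.7 and 30.9 in Scr-sh. Here every SALL4-sh array lay above every Scr-sh array, with only a small gap between 87.3 and 82.7. The means were 135 ± 41.7 in SALL4-sh and 55.3 ± 26.1 in Scr-sh (SD, n = 3 each), and the log2 fold change was 1.35 (standard error 0.48, 95% confidence interval 0.07 to 2.62, adjusted p = 0.265 from limma). Without Scr-sh replicate 3 it was 0.98.

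The calls of these neighbours depended on which dim genes entered the fit. When genes at or below the median intensity of all probe sets were left out, 21 members and 11152 genes in all remained. In that setting limma called MMP10 lower (adjusted p = 0.0292) and MMP1 higher (adjusted p = 0.0319), with MMP2 again lower (adjusted p = 0.00236). It then called 7.76% of all genes higher and 6.91% lower. The change of MMP1 against that of MMP10 was not tested.

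**Figure D2:**
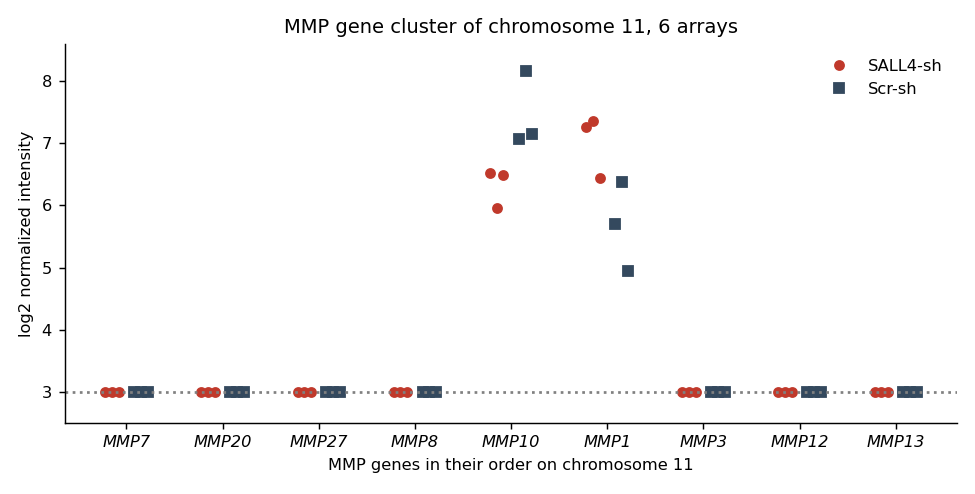
Log2 normalized intensity (vertical axis) of the 9 MMP genes of the chromosome 11 cluster in their order on the chromosome (horizontal axis), with circles for the 3 SALL4-sh arrays, squares for the 3 Scr-sh arrays and a dotted line at the floor, a log2 value of 3. Only MMP10 and MMP1 leave the floor, with MMP10 lower and MMP1 higher on the SALL4-sh arrays; levels of different genes cannot be compared on an array.

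The remaining MMPs varied little. MMP11, or stromelysin 3, had 30.9, 29.1 and 27.3 in SALL4-sh, against 32.7, 23.1 and 32.8 in Scr-sh. Of the membrane-type enzymes MMP15, MMP16, MMP17, MMP24 and MMP25, none was called, and their log2 fold changes ran from -0.12 for MMP17 to 0.30 for MMP25. MMP16 was at the floor on 5 of 6 arrays. MMP25, a leukocyte enzyme anchored in the membrane by a lipid, had 40.2, 28.8 and 38.4 in SALL4-sh, against 28.1, 28.4 and 29.9 in Scr-sh, so that 1 SALL4-sh array lay within the Scr-sh range. MMP19, MMP21 and MMP28 had log2 fold changes of -0.08, 0.15 and 0.04.

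No TIMP passed the threshold, although TIMP1 came closest to it among members after MMP2. TIMP1, a secreted inhibitor of most MMPs, had 733, 641 and 675 in SALL4-sh, against 586, 485 and 517 in Scr-sh. The groups did not overlap, and the means were 683 ± 46.7 in SALL4-sh and 529 ± 51.6 in Scr-sh (SD, n = 3 each). The log2 fold change was 0.37 (standard error 0.09, 95% confidence interval 0.12 to 0.62, adjusted p = 0.149 from limma). TIMP2, the inhibitor that also links pro-MMP2 to MMP14, had 282, 182 and 213 in SALL4-sh, against 216, 162 and 207 in Scr-sh, with overlapping groups and a log2 fold change of 0.20 (95% confidence interval -0.37 to 0.77). TIMP3, which binds to the matrix and also blocks ADAM17, had 11.6, 13.1 and 10.5 in SALL4-sh, against 10.6, 16.7 and 19.8 in Scr-sh. Its log2 fold change was -0.37 (95% confidence interval -1.10 to 0.36), and the other probe set of TIMP3 gave -0.44 with groups that overlapped as well. TIMP4 lay near the floor in both groups, between 8.26 and 9.66 in SALL4-sh and between 8.73 and 9.49 in Scr-sh.

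**Figure D3:**
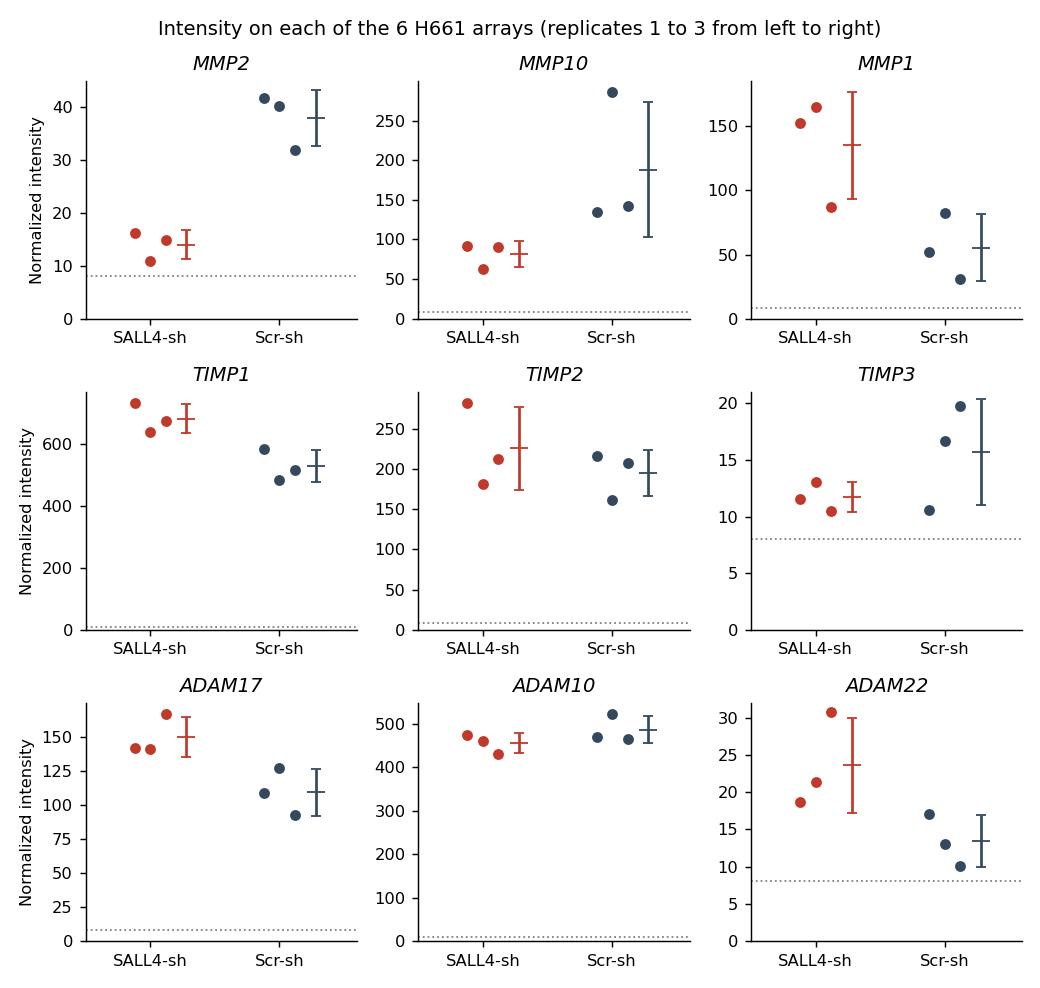
Normalized intensity (vertical axis, linear from 0) of 9 members on each array, with SALL4-sh left of Scr-sh. Points are single arrays, bars beside them the mean and SD (n = 3), and a dotted line marks the floor (8); SALL4-sh and Scr-sh are apart for MMP2, MMP10, MMP1, TIMP1, ADAM17 and ADAM22 and overlap for TIMP2, TIMP3 and ADAM10.

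Of the 23 ADAM genes 0 were called in limma, and 2 were higher and 0 lower at an unadjusted p under 0.05. Of all genes 17.4% had an unadjusted p under 0.05 from limma, in either direction. ADAM17, the enzyme that releases TNF and many EGFR ligands, had 142, 141 and 167 in SALL4-sh, against 109, 127 and 92.6 in Scr-sh. All SALL4-sh arrays lay above all Scr-sh arrays. The log2 fold change was 0.46 (standard error 0.15, 95% confidence interval 0.07 to 0.85, adjusted p = 0.220 from limma). ADAM10, which cuts Notch receptors and the amyloid precursor protein, had 475, 461 and 431 in SALL4-sh, against 471, 522 and 466 in Scr-sh. These values overlapped, and the log2 fold change was -0.09 (95% confidence interval -0.27 to 0.08). It was -0.17 after quantile normalization and -0.20 after cyclic loess. ADAM9, a shedding enzyme of many epithelial cells, had 1003, 989 and 919 in SALL4-sh, against 906, 931 and 846 in Scr-sh, with a log2 fold change of 0.12 (95% confidence interval -0.03 to 0.26).

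ADAM22, a protein without protease activity that serves as a receptor for the neuronal protein LGI1, had 18.7, 21.3 and 30.8 in SALL4-sh, against 17.1, 13 and 10.1 in Scr-sh. The groups were apart but close, and the log2 fold change was 0.82 (standard error 0.29, 95% confidence interval 0.04 to 1.6, adjusted p = 0.266 from limma). Its relatives ADAM23 and ADAM11, also without protease activity, had log2 fold changes of -0.18 and 0.25 with overlapping groups. Of the enzymes ADAM8, ADAM15, ADAM19 and ADAM33, the log2 fold changes ran from -0.42 for ADAM15, which was at the floor on 1 SALL4-sh array, to 0.13 for ADAM19, at the floor on 1 array of each group. ADAM18, ADAM20, ADAM32 and ADAM20P1 did not exceed 13.6 on any array.

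The ADAMTS genes had the narrowest range of log2 fold changes of the 4 families. However, 6 of these 17 genes were at the floor on all arrays and 5 on some, and values held at the floor narrow such a range. Of 17, 0 were called in limma, 1 was higher and 0 lower at an unadjusted p under 0.05, and log2 fold changes ran from -0.41 to 0.09. That unadjusted threshold was passed in limma by 17.4% of all genes, in either direction. ADAMTS2, a procollagen N-proteinase, had 19.3, 20.2 and 20.8 in SALL4-sh, against 23.7, 18.5 and 21.9 in Scr-sh, with overlapping groups. ADAMTS17 had 10.4, 11 and 10.7 in SALL4-sh, against 9.71, 9.93 and 10.3 in Scr-sh. ADAMTS16 had 9.72, 9.68 and 9.23 in SALL4-sh, against 10.2, 10.3 and 11.7 in Scr-sh. Both pairs of groups were apart, with log2 fold changes of 0.09 for ADAMTS17 (adjusted p = 0.257 from limma) and -0.17 for ADAMTS16 (adjusted p = 0.305 from limma). ADAMTS13, the protease of von Willebrand factor, had 10.3, 10.7 and 11.8 in SALL4-sh, against 9.53, 14.8 and 9.56 in Scr-sh. ADAMTS18 had the log2 fold change of -0.41, and 2 of its SALL4-sh arrays were at the floor.

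Counted over the 43 members that were above the floor on at least 1 array, SALL4-sh and Scr-sh values were apart in 5 genes with higher SALL4-sh values (MMP1, TIMP1, ADAM17, ADAM22 and ADAMTS17) and in 3 with lower ones (MMP2, MMP10 and ADAMTS16). These are 11.6% and 6.98% of the 43 members, where 15% and 12.5% of the 14511 genes above the floor on at least 1 array had groups that were apart in those directions. The number with lower values depended on the scaling, being 5 after median centring or quantile normalization and 7 after cyclic loess. Under those scalings the share of all genes was not counted. Of the 43 members 30 had a log2 fold change within 0.2 of 0.

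**Figure D4:**
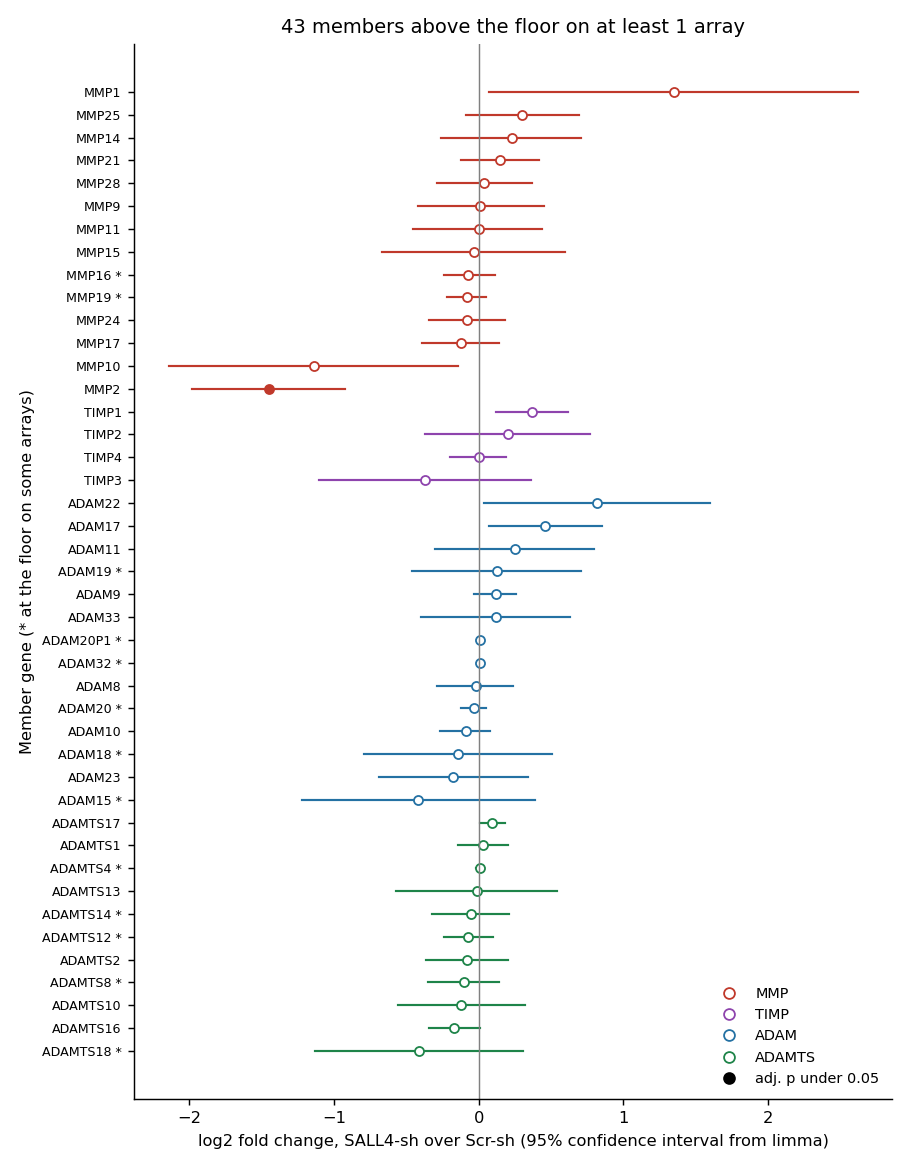
Change on the log2 scale, SALL4-sh over Scr-sh (horizontal axis), with its 95% confidence interval from limma (n = 3 arrays per group) for the 43 members above the floor on at least 1 array, grouped by family (vertical axis). The filled point, MMP2 at -1.45, passed an adjusted p of 0.05, and MMP1 at 1.35 lies farthest to the right; a star marks genes at the floor on some arrays, whose intervals are narrowed by it.

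Genes that act with these proteases were described from 5 lists. Their counts stand beside the 1.18% of all genes called higher and the 1.33% called lower in the same fit. Of 20 activators and inhibitors outside the families, 1 was called lower and 0 higher. RECK, a membrane-anchored inhibitor of MMP2, MMP9 and MMP14, fell. It had 17.2, 15.8 and 12.6 in SALL4-sh, against 69.5, 44.6 and 57.0 in Scr-sh, so that all SALL4-sh values lay far below all Scr-sh values (log2 fold change -1.90 with a standard error of 0.22, limma adjusted p = 0.0374). CTSB, a lysosomal protease, FURIN, which cuts the precursors of membrane-type MMPs and ADAMs, and BSG, a surface protein that induces MMPs in neighbouring cells, had log2 fold changes of -0.36, -0.39 and -0.51 with overlapping groups.

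Of 9 trafficking partners of ADAM10 and ADAM17, 0 were called in limma, and 1 was higher and 1 lower once genes at the floor on all arrays were left out. They were TSPAN33 (log2 fold change 0.60, adjusted p = 0.0437 in that limma fit) and TSPAN14 (log2 fold change -0.65, adjusted p = 0.0325 in that limma fit), tetraspanins that bind ADAM10. In that fit 4.36% of 14511 genes were called higher and 4.20% lower. RHBDF2, which carries ADAM17 to the cell surface, had 8.78, 11.6 and 10.3 in SALL4-sh, against 11.9, 12 and 12.4 in Scr-sh. Of 30 membrane proteins that ADAMs shed, 2 were called higher and 1 lower in the fit over all genes, where 1.18% of all genes were called higher and 1.33% lower. HBEGF, an EGFR ligand released by ADAM17 among others, had 140, 121 and 135 in SALL4-sh, against 239, 243 and 290 in Scr-sh (log2 fold change -0.96, limma adjusted p = 0.0336). NOTCH2, a receptor cut by ADAM10, had 219, 192 and 193 in SALL4-sh, against 135, 122 and 138 in Scr-sh (log2 fold change 0.61, limma adjusted p = 0.0454). CDH1, which encodes E-cadherin, was the other gene called higher (log2 fold change 0.91, with 1 Scr-sh array at the floor). The TNF receptor TNFRSF1A had 72.7, 88.4 and 76.8 in SALL4-sh, against 53.3, 52.3 and 58.1 in Scr-sh, groups that were apart (limma adjusted p = 0.0752).

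Of all genes 1.33% were called lower and 1.18% higher, and of 21 matrix substrates 1 was called lower and 0 higher. This was COL1A1, a chain of type I collagen, with 36.2, 33.5 and 38.1 in SALL4-sh, against 51.0, 50.9 and 48.5 in Scr-sh, and its call was lost with the filter at the median intensity (limma adjusted p = 0.0774). COL1A2, the other chain, had 175, 137 and 122 in SALL4-sh, against 212, 282 and 255 in Scr-sh (adjusted p = 0.132 from limma). It passed without genes at the floor throughout (limma adjusted p = 0.0486) and with the filter at the median intensity (limma adjusted p = 0.0272). FN1, VCAN, ACAN, VWF, DCN and TNC were at the floor on all arrays. Of 17 related metalloproteases and ADAMTS-like proteins 0 were called, and 8 were at the floor on all arrays. ECE1, the endothelin-converting enzyme, had 180, 158 and 148 in SALL4-sh, against 213, 195 and 203 in Scr-sh (log2 fold change -0.34, limma adjusted p = 0.157). The median log2 fold changes of the 5 lists lay between -0.06 and 0.00, beside 0.00 for all genes. These medians include genes at the floor throughout, whose log2 fold change is 0.

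**Figure D5:**
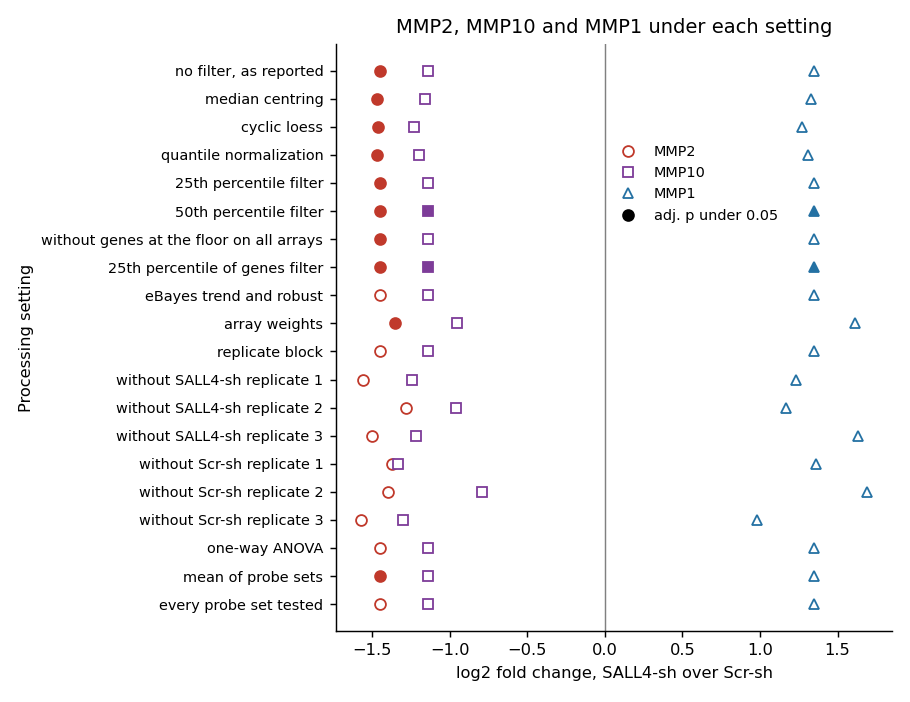
Log2 fold change of MMP2, MMP10 and MMP1 in SALL4-sh over Scr-sh (horizontal axis) in the fit as reported and under each other processing setting (vertical axis), with filled symbols for an adjusted p under 0.05. MMP2 and MMP10 stay left of 0 and MMP1 right of it in each setting, while the calls come and go.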

How the data were processed

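RNA of 6 H661 samples was hybridised to Affymetrix arrays. The authors deposited normalized intensity values of 32321 probe sets, made with RMA according to the submitters' processing notes, and each value below 8 stands at 8. No genome build was given in the sources used here. Log2 of these values was taken. Gene names came from GEO's annotation of the platform (19158 probe sets with 1 symbol, 1388 with several, 11775 with none), RefSeq changed 0 member symbols, and the brightest probe set stood for each gene. SALL4-sh was compared with Scr-sh in limma 3.58.1 (R 4.3.3, lmFit and eBayes, no filter, Benjamini-Hochberg over all 18404 genes, threshold 0.05). The same fit was run on simulated data in which only brighter genes were changed, so that run does not cover changes in dim members. Adjusted p values in the report come from limma unless one-way ANOVA is named. Arrays carry no read depth, so precision is limited by their number. The methods speak in general of independent experiments, but no source says of these arrays that they came from separate cultures, and p-values then measure only the spread between these arrays, which may be technical. By rule, values were given for members called in the reported fit or without genes at or below the 25th percentile, all TIMPs, MMP2, MMP9, MMP14, ADAM10, ADAM17, members with separate groups and up to 4 genes of each related list by adjusted p; values of other members (MMP11, MMP25, ADAM9, ADAMTS2 and ADAMTS13 among them) were chosen after they were seen. Members and lists were chosen with earlier results of these data known. Alternatives were median centring, cyclic loess, quantile normalization, filters, trend and robust eBayes, array weights, the replicate block, each array left out, one-way ANOVA, the mean of probe sets and each probe set tested. A filter at the 25th percentile of genes was added after seeing the data.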

Additional observations from a re-analysis of the deposited data

How the results depend on the processing

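Directions held for MMP2, MMP10, MMP1, TIMP1, TIMP2, TIMP3, ADAM10, ADAM17, ADAM22, ADAMTS16 and ADAMTS17 in every setting run. MMP9 turned to -0.01 after median centring and after quantile normalization, and ran from -0.15 to 0.14 with 1 array left out. Members called lower were 0 with trend and robust eBayes, 0 with one-way ANOVA, 0 with each probe set tested and 0 with any 1 array left out, whereas 2 were lower and 1 higher with the filter at the 50th percentile, and likewise 2 and 1 at the 25th percentile of genes. With the replicate number as a block 0 members and 10 genes were called. Deviations of same-numbered arrays correlated at 0.144, 0.113 and -0.001, those of differently numbered arrays at -0.152 to 0.034. These values do not decide whether the numbers pair arrays, and the sample titles state no pairing. Members with separate groups numbered 5 lower after median centring, 7 after cyclic loess and 5 after quantile normalization. With 1 array left out 4 to 8 were lower and 5 to 9 higher, but leaving out an array can only keep or raise such a count. The share of all genes with separate groups was not counted in these settings, so the counts cannot be set beside it. Over all genes, 462 were called as reported, 1243 without genes at the floor on all arrays (the 25th percentile of probe sets gave the same 1243, since it equals the floor), 1585 and 1636 with the stricter filters, 76 with trend and robust eBayes, 111 with one-way ANOVA, and 52 to 404 with 1 array left out. The causes were not tested. Signal near the floor limits what could be detected for ADAMTS genes, MMP9 and TIMP4.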
